A study of Rattus norvegicus with 6 samples.

Results

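The genes described here encode F-box proteins and the core of the ubiquitin ligase they belong to. They were chosen by symbol: names that begin with Fbxl, Fbxo or Fbxw and a digit, together with Skp1, Skp2, Cul1, Rbx1 and Btrc. The rule found 68 of the 17093 genes with a value, and 54 of these were tested, among 11493 tested genes in all, a gene being tested where 3 or more of the 6 libraries had it at 1 or higher. The members were divided into 3 core subunits (3 tested), 11 cell cycle F-box genes (10 tested), 5 muscle atrophy F-box genes (3 tested) and 49 other F-box genes (38 tested). No tested member was at 1 or higher in libraries of 1 group alone (0 of 54).

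Expression was measured by RNA sequencing in primary nucleus pulposus cells, which fill the gel-like centre of the intervertebral disc, from male rats at passages 3 to 6. The cells were grown in DMEM-F12 with 10% fetal bovine serum, penicillin and streptomycin. The starved group (3 libraries) then had medium without the serum, and the control group (3 libraries) is labelled as untreated and was taken to have stayed in growth medium, since all samples carry the same protocol text. The labels give 48 h for both groups. They do not name the animal or dish behind a library, so a p-value reflects the spread between these samples alone, which may be technical. Deposited values carry no unit, were treated as FPKM (fragments corrected for gene length and library size) and summed to between 447788 and 473452 in starved and between 522165 and 530095 in control libraries. The read depth is unknown. Among 18 symbols on a nucleus pulposus marker list, 12 were matched and 9 reached 1 in some library. Some of the symbols are alternative names of the same gene, and Krt19, Tbxt (also searched as T) and Ovos2 had no match. Col2a1 was at most 0.06 and Krt18 was listed at 0 throughout, whereas Foxf1 and Pax1 were above 20 in every library. Summed over the matched markers, the level was 134 to 142 in starved and 271 to 316 in control libraries. Slc2a1 and Acan made up most of the control level, with means of 142 and 77.5 in control and 30.7 and 3.05 in starved libraries. The means of Car3 (1.03 to 26.1) and Pax1 (27.5 to 51.2) went the other way from control to starved libraries. The markers did not move one way: 6 of the 9 fell and 2 rose (66.7% and 22.2%, against 29.4% and 31.7% of all tested genes). Car12, among the 6, was at 1 or higher in the control libraries alone and so had to differ. Acan (25.4-fold lower), Slc2a1 (4.63-fold) and Sox9 (4.03-fold) were among those that fell, and Car3 (25.4-fold higher) and Pax1 (1.86-fold) rose. Of the marker lists for other cells, the summed skeletal muscle level was 7.37 to 8.16 in starved and 5.86 to 7.58 in control libraries, the endothelial level 0.44 to 0.66 and 0.48 to 1.05, and the leukocyte level 2.97 to 4.2 and 1.72 to 2.54. The leukocyte level was nearly all Cd68, and the part of these levels in the results was not tested.

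An SCF ligase attaches ubiquitin to proteins, most often to mark them for the proteasome. CUL1 is its scaffold, RBX1 is the RING subunit that receives the ubiquitin-conjugating enzyme, SKP1 is the adaptor, and an exchangeable F-box protein binds SKP1 and picks the substrate. F-box proteins are grouped by what follows the F-box: leucine-rich repeats (FBXL), WD40 repeats (FBXW) or other domains (FBXO). SKP2, FBXW7 and the beta-TrCP pair are known for removing cell cycle regulators, and FBXO32 (atrogin-1) is known for its rise in wasting muscle.

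Promoter letters are shown for the members with the largest fall (Fbxo5) and the largest rise (Fbxl7), and for Skp2, the other cell cycle F-box gene that fell. They come from RefSeq windows on the GRCr8 assembly, 5′ to 3′ on the gene's strand. Fbxo5 runs from 120 bases before the annotated start to 20 bases after it (chr1:44607762-44607901, minus strand), Skp2 covers the same stretch (chr2:59916452-59916591, minus strand), and Fbxl7 gives the 60 bases that open its window 250 bases before the start (chr2:79239888-79239947, minus strand). Capitals mark matches, on either strand, to TTTGAA (cell cycle homology element), TTTCGCG or TTTGGCG (E2F), GTAAACA (forkhead) or CCAAT, and none of the matches shown overlaps another.
Fbxo5: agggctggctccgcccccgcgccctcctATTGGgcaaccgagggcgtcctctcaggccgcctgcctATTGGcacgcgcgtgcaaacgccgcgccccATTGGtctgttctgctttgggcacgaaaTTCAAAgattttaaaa
Skp2: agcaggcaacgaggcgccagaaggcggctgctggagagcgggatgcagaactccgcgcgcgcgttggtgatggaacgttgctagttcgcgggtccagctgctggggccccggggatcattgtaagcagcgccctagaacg
Fbxl7: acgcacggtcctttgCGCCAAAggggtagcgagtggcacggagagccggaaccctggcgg
The Fbxo5 window held 3 CCAAT matches, at 92, 54 and 24 bases before the start, and TTTGAA read on the opposite strand at the fifth base after it. The Skp2 stretch held no match. Fbxl7 held TTTGGCG on the opposite strand, 235 bases before its start.

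A window was matched by gene ID for 55 of the 68 members. Fbxo32 had no entry. In the 250 bases before the start, TTTGAA occurred in 3 of the 55 (Fbxo9, Fbxo40 and Fbxo48), or 5.45%, against 17.2% of all 27457 genes with at least 1 window. The E2F letters occurred in 2 (Fbxl7 and Fbxo8), or 3.64% against 2.05%, and GTAAACA in 0 against 3.54%. With the 50 bases after the start included, a choice made after seeing the data, TTTGAA occurred in 5 (Fbxo5 and Fbxl20 in addition), or 9.09% against 19.4%. CCAAT, also searched after seeing the data, was present in 15 of the 55 in the 250 bases, or 27.3% against 36.1%, and 2.88% of all genes held it at least 3 times in a window, as Fbxo5 and Fbxl17 did. In Fbxl17 the matches at 164 and 161 bases before the start overlap on opposite strands, and such overlaps were counted separately in all genes. These are matches of letters and not measured sites.

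Across the 54 tested members, 28 rose and 7 fell in serum-starved cells, and the other 19 did not pass (limma, Benjamini-Hochberg adjusted p of at most 0.05). Over all tested genes, 61.1% were called, 31.7% higher and 29.4% lower. The shares among the members were 51.9% and 13%, and the median log2 fold change was 0.24 against 0.03 over all tested genes. No test of the members against other genes was made. Most changes were small: the 28 rises had a median of 1.33-fold and ranged from 1.16-fold to 3.76-fold, and the 7 falls ranged from 1.22-fold to 8.11-fold. Folds are ratios of the mean values, while log2 fold changes are on the log2(value + 1) scale, which understates the change of low genes. On that scale 3 members changed at least 2-fold (Fbxo5, Fbxl7 and Fbxo32), or 5.56% against 11.3% of all tested genes. The starved libraries all lay above the controls for 28 members and all below for 7, where 35.7% and 32.5% of all tested genes did so. By family, 18 of 26 FBXO genes rose and 3 fell, 8 of 16 FBXL genes (Skp2 included) rose and 3 fell, and 2 of 9 FBXW genes (Btrc included) rose and 0 fell. Among the FBXW genes that did not pass, Fbxw2 and Fbxw4 had the lowest Benjamini-Hochberg adjusted p from limma, at 0.0854 and 0.108.

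**Figure D1:**
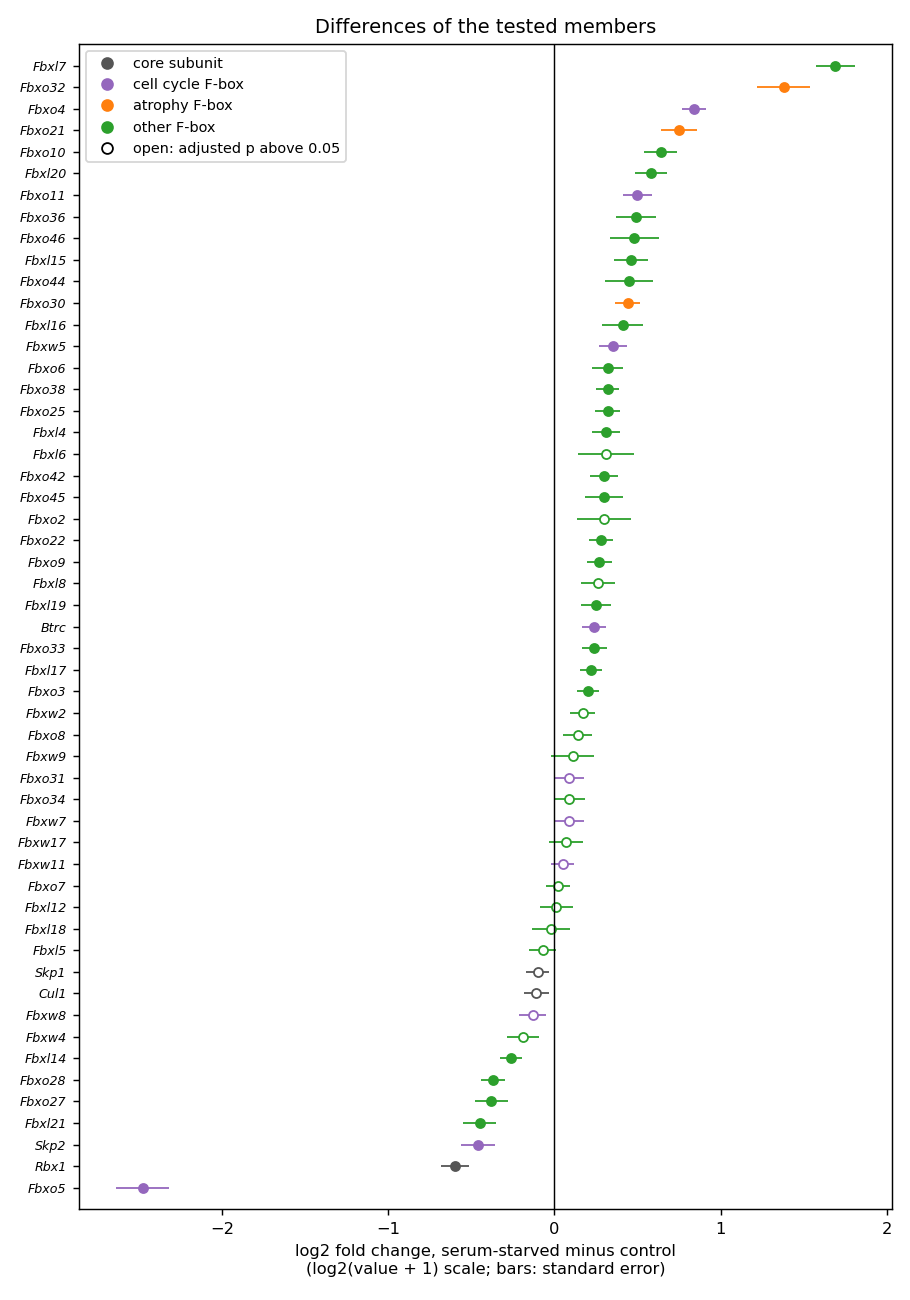
Log2 fold change (serum-starved minus control, log2(value + 1) scale, x axis) of the tested members (y axis, ordered by the change), with standard errors as bars, colour for the class and open circles where the adjusted p was above 0.05. Fbxo5 stands at -2.48, far below the next member, and Fbxl7 (1.69) and Fbxo32 (1.38) stand above the rest.

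Of the 3 core subunits, Rbx1 fell and Cul1 and Skp1 did not pass. Rbx1 (gene ID 300084), the RING subunit, had values of 56.63, 55.75 and 50 in control replicates 1, 2 and 3 and 37.92, 31.67 and 36.79 in starved replicates 1, 2 and 3. All starved values lay below all control values, and the fall was 1.53-fold (log2 fold change -0.60 ± 0.086 (SE), limma, Benjamini-Hochberg adjusted p = 0.000462). Cul1 (gene ID 362356), the scaffold, had control values of 50.67, 48.32 and 44.81 and starved values of 47.26, 44.87 and 41.24, and the groups overlapped. Its log2 fold change was -0.11 ± 0.0755 (SE) and did not pass (limma, Benjamini-Hochberg adjusted p = 0.247). Skp1 (gene ID 287280), the adaptor and the most abundant member, had control values of 258.06, 254.05 and 229.35 and starved values of 241.48, 224.95 and 225.85, again with overlap. Its log2 fold change was -0.10 ± 0.0701 (SE, adjusted p = 0.255 with limma and Benjamini-Hochberg adjustment). The sign of the Cul1 and Skp1 values turned when every library was scaled to a common total and after quantile normalization, while Rbx1 fell under every alternative that was run.

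Ratios of 2 genes within a library do not depend on a factor per library. The Rbx1 to Cul1 ratio was 1.12, 1.15 and 1.12 in control and 0.802, 0.706 and 0.892 in starved libraries, without overlap. An exact two-sided permutation test gave p = 0.1, the smallest that 3 libraries against 3 allow (Benjamini-Hochberg adjusted over 8 ratios, 0.16). This test cannot reach 0.05, so it could not decide whether Rbx1 and Cul1 responded differently. The Skp1 to Cul1 ratio was 5.16 ± 0.0887 in control and 5.20 ± 0.244 in starved libraries (SD, n = 3 each, exact permutation p = 0.9). These 8 pairs were chosen with the values known. Summed over the 65 F-box members, the level was 479, 480 and 501 in control and 569, 568 and 567 in starved libraries, so that Skp1 over this sum went from 0.539, 0.529 and 0.458 to 0.424, 0.396 and 0.399. The other F-box genes made up most of that sum, at 362 ± 11.1 and 424 ± 3.21, the cell cycle F-box genes gave 109 ± 3.79 and 117 ± 1.00, and the atrophy F-box genes 14.4 ± 1.28 and 26.7 ± 1.91 (control and starved, SD, n = 3 each).

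Among the cell cycle F-box genes, 2 of 10 fell (Fbxo5 and Skp2), 4 rose (Fbxo4, Fbxo11, Fbxw5 and Btrc) and 4 did not pass. These shares, 40.0% higher and 20.0% lower, stand against 31.7% and 29.4% of all tested genes. The median log2 fold change of the class was 0.09. Fbxo43, the meiotic relative of Fbxo5, was at most 0.1 in any library and was not tested. Fbxo5 (gene ID 292263) encodes EMI1, an inhibitor of the anaphase-promoting complex that is itself removed through beta-TrCP in mitosis. Its values were 16.07, 12.37 and 14.0 in control and 2.39, 1.23 and 1.61 in starved libraries. The groups were far apart, and the mean was 8.11-fold lower, at 14.1 ± 1.85 in control and 1.74 ± 0.591 in starved cells (SD, n = 3 each). In limma this was -2.48 ± 0.159 (SE) on the log2 scale, with a Benjamini-Hochberg adjusted p = 4.99e-06. In bulk RNA, fewer cells that express a gene and less of its RNA per cell cannot be told apart.

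Skp2 (gene ID 294790) binds the CDK inhibitor p27 for removal at the entry to S phase. It was low in every library, at 2.13, 1.81 and 2.26 in control and 1.4, 1.13 and 1.14 in starved cells. The groups did not overlap, but the fall was only 1.69-fold (log2 fold change -0.46 ± 0.105 (SE), limma, Benjamini-Hochberg adjusted p = 0.00513). The Fbxo5 to Skp2 ratio went from 7.54, 6.83 and 6.19 in control to 1.71, 1.09 and 1.41 in starved libraries (exact permutation p = 0.1, the smallest possible). Skp2 did not reach a filter at a value of 5, under which 1 cell cycle F-box gene fell.

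Fbxo4 (gene ID 310363), reported as an F-box protein for cyclin D1, rose the most of this group, from 5.87, 6.14 and 6.0 to 11.73, 10.86 and 12.06. These values were tight in both groups and gave a 1.92-fold rise (log2 fold change 0.84 ± 0.0734 (SE), limma, Benjamini-Hochberg adjusted p = 2.91e-05). Fbxo11 (gene ID 301674), which acts on BCL6 and CDT2, rose 1.43-fold, from 18.07, 14.63 and 15.94 to 22.58, 24.98 and 22.13. Fbxw5 (gene ID 362081), which limits the centriole protein SAS-6, rose 1.29-fold, from 16.8, 17.54 and 19.93 to 21.86, 23.08 and 24.89. In both genes the lowest starved value lay above the highest control value, by a wider margin in Fbxo11 (log2 fold changes of 0.50 ± 0.0899 and 0.35 ± 0.0841 (SE), limma, Benjamini-Hochberg adjusted p = 0.00162 and 0.00691).

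The beta-TrCP paralogs Btrc and Fbxw11 recognise the same phosphorylated motif in beta-catenin, IkB and EMI1. Btrc (gene ID 361765) had 12.08, 12.1 and 12.24 in control and 15.05, 15.03 and 13.44 in starved libraries, a 1.19-fold rise (limma, Benjamini-Hochberg adjusted p = 0.0188). That call was lost without control replicate 2 and without starved replicates 1 or 2, where the adjusted p reached 0.0641. Fbxw11 (gene ID 303024) had 18.75, 19.0 and 17.17 in control and 18.69, 18.52 and 19.62 in starved libraries and did not pass (log2 fold change 0.05 ± 0.0683 (SE), adjusted p = 0.567 with limma). The Btrc to Fbxw11 ratio was 0.665 ± 0.0419 in control and 0.767 ± 0.0713 in starved libraries (SD, n = 3 each), with overlap and an exact permutation p = 0.2. With 3 libraries against 3 that test cannot go below 0.1, so it could not decide whether the paralogs responded differently.

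The remaining 3 tested cell cycle F-box genes differed little. Fbxw7 (gene ID 100360914), which removes cyclin E, MYC and JUN, was at 2.04, 1.88 and 2.02 in control and 2.29, 2.22 and 1.99 in starved libraries (log2 fold change 0.09 ± 0.0904, SE). Fbxo31 (gene ID 498959), linked both to cyclin D1 turnover and to muscle atrophy, was at 8.87, 7.61 and 8.46 against 8.57, 9.76 and 8.37 (0.09 ± 0.0888). Fbxw8 (gene ID 304522), a partner of CUL7, was at 11.69, 12.33 and 13.36 against 12.2, 10.72 and 11.07 (-0.13 ± 0.0808). All 3 had overlapping groups, with Benjamini-Hochberg adjusted p between 0.203 (Fbxw8) and 0.427 (Fbxw7) from limma. A p that misses the threshold does not show that they were equal. At a common total, Fbxo31 and Fbxw11 rose and Fbxw8 changed sign to 0.0515, still without passing.

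**Figure D2:**
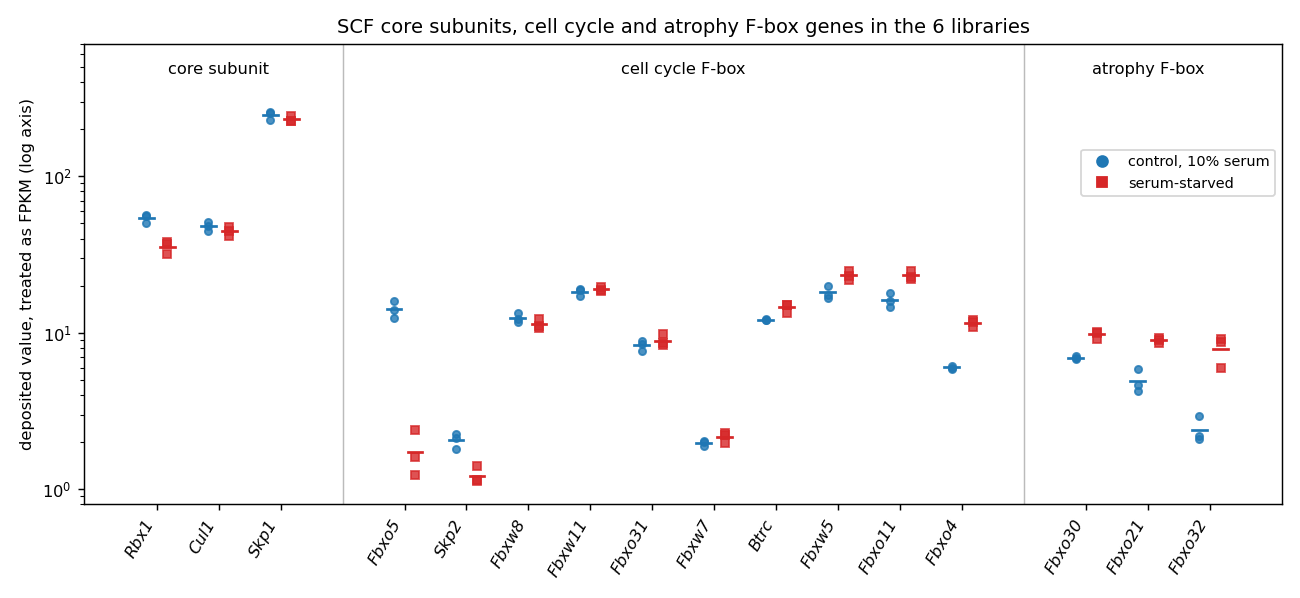
Deposited value (treated as FPKM, log axis) of the 16 tested core, cell cycle and atrophy members (x axis, ordered by change within each class) in control (blue circles) and serum-starved (red squares) libraries, each point being 1 library and each short line the mean of 3. Fbxo5 and Fbxo32 show the widest gaps between groups, in opposite directions, and the points of Cul1, Skp1, Fbxw7, Fbxw8, Fbxw11 and Fbxo31 overlap.

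All 3 tested atrophy F-box genes rose, where 31.7% of all tested genes did. Their median log2 fold change was 0.75, and all 3 rose under every alternative that was run. Fbxo31, also linked to muscle atrophy, was counted with the cell cycle F-box genes and did not pass (log2 fold change 0.09 ± 0.0888 (SE), limma, Benjamini-Hochberg adjusted p = 0.414). Fbxo32 (gene ID 171043), which encodes atrogin-1, a FOXO target in muscle, had 2.19, 2.1 and 2.92 in control and 5.95, 9.09 and 8.73 in starved libraries. Starved replicate 1 was the lowest of its group but still above every control, and the mean rose 3.30-fold from 2.40 ± 0.450 to 7.92 ± 1.72 (SD, n = 3 each). The log2 fold change was 1.38 ± 0.159 (SE) with a limma Benjamini-Hochberg adjusted p = 0.000135. Fbxo21 (gene ID 360818), known as SMART in muscle, rose 1.81-fold, from 4.67, 4.22 and 5.9 to 8.55, 9.03 and 9.21. Fbxo30 (gene ID 308283), known as MUSA1, rose 1.40-fold, from 7.15, 6.87 and 6.82 to 9.95, 10.15 and 9.18. Neither pair of groups overlapped (limma, Benjamini-Hochberg adjusted p = 0.000501 for Fbxo21 and 0.00109 for Fbxo30). The Fbxo32 to Fbxo30 ratio went from 0.306, 0.306 and 0.428 to 0.598, 0.896 and 0.951, also without overlap (exact permutation p = 0.1).

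The other atrophy genes on the list are known from striated muscle and were not tested: Fbxo40 was listed at 0 in all libraries, and Fbxl22 was between 0.08 and 0.16. Of 12 skeletal muscle markers, 7 were matched and 2 reached 1 in some library. Myh2 was listed at 0 throughout, Mb and Myod1 were listed at 0 in every starved library, Tnnt3 was between 5.09 and 7.19 in all libraries, and Acta1 was at 1.07 to 1.63 in starved and at most 0.14 in control libraries.

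The 38 other tested F-box genes comprised 21 with a rise (55.3%), 4 with a fall (10.5%) and 13 that did not pass. Over all tested genes, 31.7% rose and 29.4% fell. The median log2 fold change of the other F-box genes was 0.27. The count that rose was 13 without starved replicate 3 and 27 at a common total, and the count that fell was 2 at a common total. Fbxl7 (gene ID 361907), an F-box protein reported to act on the mitotic kinase Aurora A, rose the most of all members. Its values were 3.24, 4.11 and 4.59 in control and 13.53, 16.45 and 14.88 in starved libraries. The lowest starved value was well above the highest control value, and the rise was 3.76-fold, from 3.98 ± 0.684 to 15.0 ± 1.46 (SD, n = 3 each). In limma this was 1.69 ± 0.118 (SE) on the log2 scale, with a Benjamini-Hochberg adjusted p = 8.48e-06.

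The next largest rises, ranked on the log2(value + 1) scale, were smaller. Fbxo10 (gene ID 362511), reported to remove BCL2, went from 2.35, 2.74 and 3.09 to 4.7, 4.64 and 4.99, 1.75-fold higher. Fbxl20 (gene ID 64039), known at synapses as SCRAPPER, went from 8.7, 8.51 and 10.43 to 15.12, 14.81 and 12.96, 1.55-fold higher. Fbxl15 (gene ID 309453), which acts on the BMP pathway ligase SMURF1, went from 1.41, 1.84 and 1.49 to 2.71, 2.33 and 2.61, 1.61-fold higher. In these 3 genes no starved value reached down to a control value. Fbxo36 (gene ID 363268) went from 1.51, 1.42 and 1.06 to 2.67, 2.18 and 1.98, 1.71-fold higher. Fbxo46 (gene ID 292686) went from 2.93, 4.11 and 4.97 to 6.35, 5.45 and 5.91, 1.47-fold higher, with control replicate 3 close to the starved values. The Benjamini-Hochberg adjusted p from limma was 0.000668 for Fbxo10, 0.00102 for Fbxl20, 0.00474 for Fbxl15, 0.00794 for Fbxo36 and 0.0203 for Fbxo46. The Fbxo46 call was lost without starved replicate 1 or 3 (adjusted p of up to 0.0636).

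The members that fell in this class were Fbxl21, Fbxo27, Fbxo28 and Fbxl14. Fbxl21 (gene ID 306750) had 3.08, 2.81 and 2.78 in control and 2.04, 1.95 and 1.58 in starved libraries, 1.56-fold lower. Fbxo27 (gene ID 499114) had 2.32, 2.6 and 2.28 against 1.86, 1.47 and 1.54, 1.48-fold lower. Both were low genes whose groups did not overlap (limma, Benjamini-Hochberg adjusted p = 0.00464 and 0.0111). Fbxo28 (gene ID 305105), which acts on MYC, had 19.78, 18.62 and 17.99 against 13.77, 15.34 and 13.95, 1.31-fold lower. Fbxl14 (gene ID 312675), which acts on the transcription factor SNAIL, had 9.59, 9.39 and 9.26 against 7.62, 7.85 and 7.66, 1.22-fold lower. These 2 were tight within groups (adjusted p = 0.0026 and 0.0102 with limma and Benjamini-Hochberg adjustment), but neither passed at a common total (adjusted p = 0.0721 and 0.33).

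Fbxl5 (gene ID 305424), the iron-sensing F-box protein that removes IRP2, was at 32.42, 30.95 and 36.04 against 31.46, 33.8 and 29.3 and did not pass (log2 fold change -0.07 ± 0.0814 (SE), adjusted p = 0.482 with limma).

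A list drawn up for a link to glycoproteins held 5 F-box genes, of which 4 were tested. Among these, 2 rose (Fbxo6 and Fbxo44), 1 fell (Fbxo27) and Fbxo2 did not pass. Whether each product binds glycoproteins was not tested. Fbxo6 (gene ID 192351) was the most abundant F-box member, at 30.71, 36.81 and 39.14 in control and 45.94, 41.97 and 45.11 in starved libraries, 1.25-fold higher (limma, Benjamini-Hochberg adjusted p = 0.0176). Fbxo44 (gene ID 500587) was at 6.54, 6.32 and 9.79 against 10.05, 10.62 and 10.79, 1.39-fold higher, with control replicate 3 just under the starved values (adjusted p = 0.0241 with limma). Both calls were lost when certain single libraries were left out: starved replicate 1 or 3 for Fbxo6 (up to 0.0574), and control replicate 1 or 2 or starved replicate 2 or 3 for Fbxo44 (up to 0.0818). Fbxo2 (gene ID 85273) ranged from 0.83 to 1.19 in control and from 0.94 to 1.94 in starved libraries, and Fbxo17 was at most 0.13 and not tested.

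Fbxw2 (gene ID 311881), the third most abundant of the class after Fbxo6 and Fbxl5, was at 23.16, 20.93 and 22.68 in control and 27.1, 23.54 and 24.76 in starved libraries and did not pass (adjusted p = 0.0854 with limma and Benjamini-Hochberg adjustment). Other members that rose were Fbxl4, Fbxl16, Fbxl17, Fbxl19, Fbxo3, Fbxo9, Fbxo22, Fbxo25, Fbxo33, Fbxo38, Fbxo42 and Fbxo45. Fbxl16, a low gene, rose 1.68-fold, from 0.913 ± 0.214 in control to 1.53 ± 0.221 in starved libraries (SD, n = 3 each). Apart from it, their rises lay between 1.16-fold (Fbxo3) and 1.31-fold (Fbxo45). Fbxo22 (gene ID 300724), which acts on the histone demethylase KDM4A, and Fbxl4 (gene ID 313101), a mitochondrial F-box protein, were among them at 1.23-fold and 1.29-fold higher. Fbxo45 (limma, Benjamini-Hochberg adjusted p = 0.0491) was a member that rose with overlapping groups, from 3.35, 2.7 and 2.4 to 3.84, 3.94 and 3.29. Fbxl8, also with overlap, just missed the threshold (adjusted p = 0.0518 with limma).

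These small rises were not equally firm. Fbxl4, Fbxo9, Fbxo22, Fbxo25 and Fbxo38 passed under all 16 alternatives. Fbxo45 lost its call under 9 of 15 alternatives, among them leaving out control replicate 2 or 3 or starved replicate 1 or 2. Fbxl19 lost it under 7 of 16, among them leaving out any 1 library except control replicate 3 (adjusted p of up to 0.141 with limma). Fbxo3 also lost it under 7 of 16, among them leaving out any 1 library except control replicate 1. For Fbxo33 it was 5 of 16, among them leaving out control replicate 1 or 2 or starved replicate 2 or 3. The Fbxl16 call was lost without control replicate 2 or starved replicate 2 or 3, the Fbxl17 call without starved replicate 3, and the Fbxo42 call without starved replicate 2.

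The other tested members did not pass: Fbxl6, Fbxl8, Fbxl12, Fbxl18, Fbxo7, Fbxo8, Fbxo34, Fbxw4, Fbxw9 and Fbxw17 had log2 fold changes between -0.19 (Fbxw4) and 0.31 (Fbxl6). Fbxo7 (gene ID 366854), known from mitophagy and inherited parkinsonism, was near the middle at 12.8 ± 0.671 and 13.1 ± 0.496 (control and starved, SD, n = 3 each). The 14 untested members were at most 1.0 in any library. Of these, Fbxo41 (0.39, 0.25 and 0.42 against 0.74, 0.81 and 0.88) and Fbxo24 (0.02, 0.06 and 0.02 against 0.12, 0.08 and 0.16) were higher and Fbxo43 (0.1, 0.08 and 0.1 against 0.06, 0.0 and 0.03) was lower in all starved libraries, at levels too low for a fold. RefSeq names 14 pseudogenes of 8 members (Fbxl14, Fbxo5, Fbxo22, Fbxw2, Fbxw11, Rbx1, Skp1 and Skp2), none of which (0 of 14) had a value of its own among the genes analysed. Whether reads are shared with them was not tested, so these values are uncertain in that respect.

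**Figure D3:**
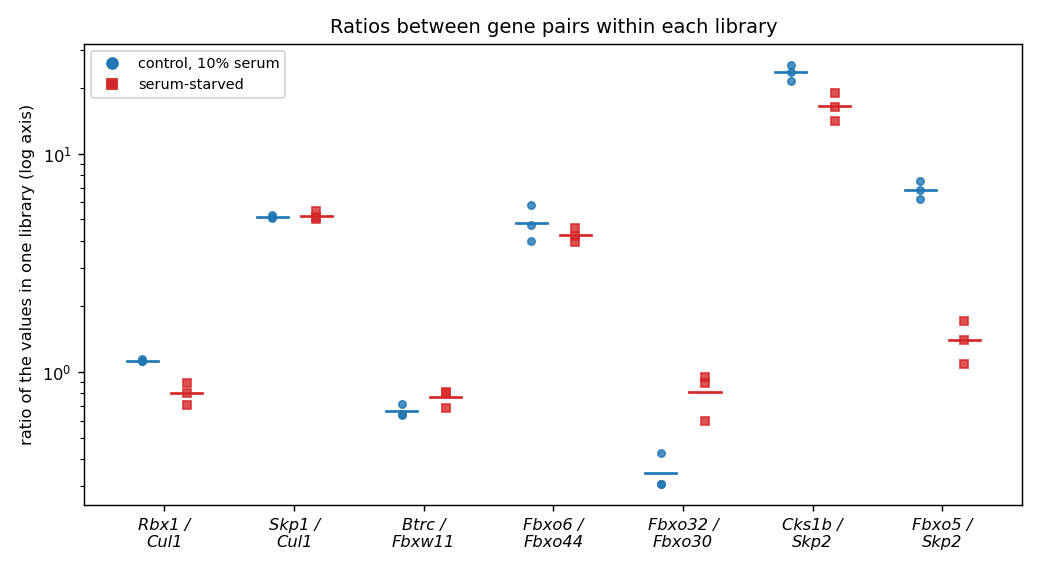
Ratio of the values of 2 genes in the same library (log axis) for pairs of genes, with 1 point per control (blue circles) and starved (red squares) library and a line at the mean of 3. The Skp1 to Cul1 points coincide near 5, whereas the Fbxo32 to Fbxo30 points separate upwards and the Fbxo5 to Skp2 and Rbx1 to Cul1 points separate downwards in starved libraries.

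Counts for the genes around the ligase are read against the shares over all tested genes, 31.7% higher and 29.4% lower. Among F-box genes with other names, 5 were tested. Of these, 2 rose (Fbh1 and Kdm2a) and 2 did not pass. The other, Ccnf (gene ID 117524), encodes cyclin F, the founding F-box protein, with 15.91, 12.02 and 15.13 in control and 0.97, 0.73 and 0.78 in starved libraries. Its mean was 17.4-fold lower. This is a description with no test, because Ccnf was at 1 or higher in the control libraries alone and so had to differ. The DNA helicase gene Fbh1 rose 1.26-fold and the histone demethylase gene Kdm2a 1.24-fold.

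Of 12 ubiquitin-activating, conjugating and cofactor genes, 4 fell and 3 rose, and 5 did not pass (33.3% and 25.0%, median -0.12, but 0.07 at a common total and 0.02 after quantile normalization). Cks1b (gene ID 499655), whose product SKP2 needs to bind p27, had 50.62, 46.21 and 48.51 in control and 19.73, 21.5 and 18.61 in starved libraries, 2.43-fold lower (limma, Benjamini-Hochberg adjusted p = 3.25e-06). The Cks1b to Skp2 ratio went from 23.8, 25.5 and 21.5 to 14.1, 19.0 and 16.3, with no overlap (exact permutation p = 0.1). Cks2 fell 25.2-fold, from 61.6 ± 6.80 to 2.45 ± 0.706 (SD, n = 3 each), and Cdc34, the conjugating enzyme classically paired with SCF, fell 1.51-fold. Among the 3 that rose was Ube2r2, also a conjugating enzyme gene and more abundant than Cdc34. It went from 141 ± 6.01 in control to 159 ± 4.71 in starved libraries (SD, n = 3 each), 1.13-fold higher (limma, Benjamini-Hochberg adjusted p = 0.0344).

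Activation of a cullin needs the ubiquitin-like protein NEDD8, which the COP9 signalosome takes off again, and CAND1 helps exchange F-box proteins. In the NEDD8 list 3 of 11 genes were called lower and 2 higher, and 6 did not pass (27.3% and 18.2%, median -0.06, but 0.13 at a common total and 0.03 after quantile normalization). Dcun1d4 was 2-fold higher, and Dcun1d5 and Ube2m, the NEDD8-conjugating enzyme, were 1.46-fold and 1.44-fold lower. In the COP9 and CAND list 6 of 11 fell and 1 rose (54.5% and 9.09%, median -0.17). The gene that rose was Cand1, from 45.4 ± 1.08 in control to 52.0 ± 2.96 in starved libraries (SD, n = 3 each). Its rise was 1.15-fold (limma, Benjamini-Hochberg adjusted p = 0.0299). Cops5, the catalytic subunit, was 1.41-fold lower and Cops3 1.32-fold. Cand2, less abundant than Cand1, was 1.42-fold lower but did not pass at a common total (adjusted p = 0.0853 with limma). At a common total 2 of these 11 fell and after quantile normalization 3 did, with medians of 0.02 and -0.07. Of the 6 matched other cullins, 1 rose (Cul4b, 1.28-fold) and 0 fell by limma, against 4 and 0 at a common total and 3 and 1 with library weights.

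The list of SCF substrate genes holds RNAs of proteins that these ligases are known to remove, so their levels do not show protein turnover. Of 22 tested, Cdt1, Orc1 and Dtl were at 1 or higher in the control libraries alone and had to differ. Of the other 19, 11 were lower (57.9%), 3 were higher and 5 did not pass. Their median was -0.45. At a common total 6 of the list rose. Cdkn1b (gene ID 83571), which encodes p27, had 25.45, 28.39 and 30.22 in control and 46.99, 55.31 and 53.2 in starved libraries, 1.85-fold higher with no overlap (limma, Benjamini-Hochberg adjusted p = 6.8e-05). Its RNA rose while Skp2 and Cks1b fell. Ccnd1 (gene ID 58919), which encodes cyclin D1, had 419.58, 385.95 and 329.39 in control and 57.16, 45.76 and 34.65 in starved libraries, 8.25-fold lower. Of the F-box genes linked to cyclin D1 above, Fbxo4 rose and Fbxo31 did not pass. Whether the RNA of a ligase gene and that of a substrate gene are linked was not tested.

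The atrophy programme list had 8 rises and 4 falls among 14 tested genes, and 2 did not pass (57.1% and 28.6%, median 0.38). Foxo1 (gene ID 84482), a transcription factor that drives atrogin-1 in muscle, had 5.36, 5.23 and 4.62 in control and 14.97, 14.72 and 15.67 in starved libraries, 2.98-fold higher (limma, Benjamini-Hochberg adjusted p = 2.33e-06). Trim63 (gene ID 140939), which encodes the muscle RING ligase MuRF1, the usual companion of atrogin-1, was low at 0.71, 1.2 and 0.66 against 1.36, 1.09 and 1.85. Its groups overlapped and it did not pass (limma, Benjamini-Hochberg adjusted p = 0.0584), though it did in 4 alternatives (adjusted p = 0.021 at a common total). The falls included Bnip3, a hypoxia and mitophagy gene, 5.17-fold lower, and Eif4ebp1, the translation repressor 4E-BP1, 2.43-fold lower.

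**Figure D4:**
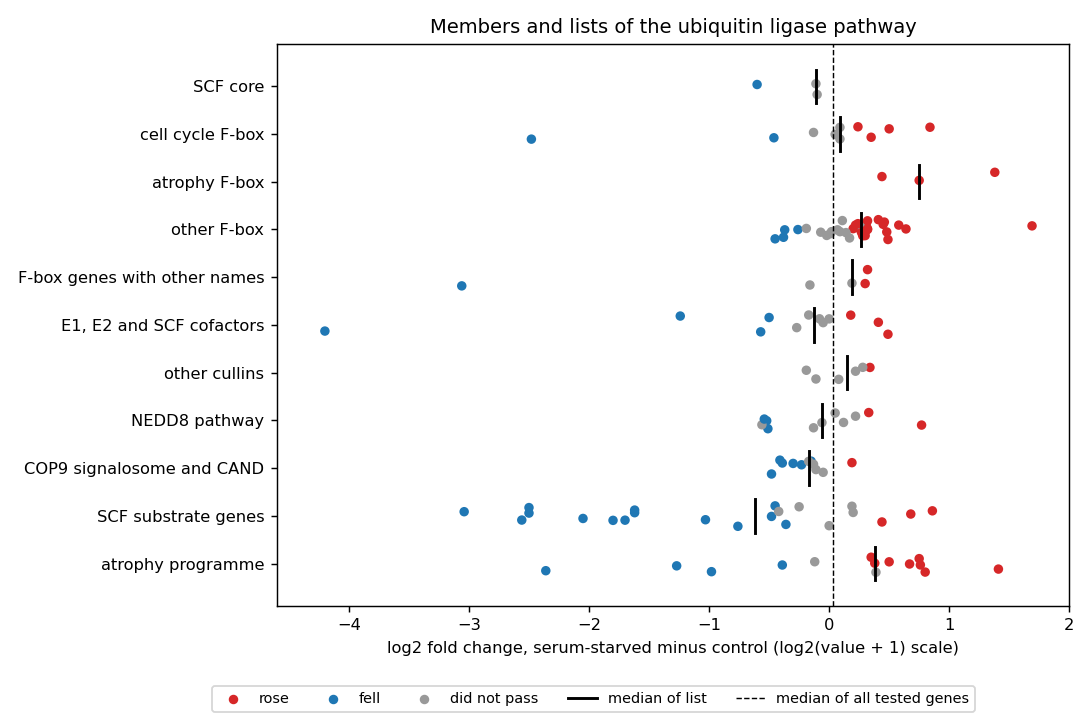
Log2 fold change (serum-starved minus control, log2(value + 1) scale, x axis) of tested genes in the 4 classes of members and 7 lists of genes around the ligase (y axis), with red for genes that rose, blue for genes that fell, grey for the rest, a black bar at the median of each list and a dashed line at the median of all tested genes (0.03). The median was 0.75 for the atrophy F-box genes, 0.27 for the other F-box genes and 0.09 for the cell cycle F-box genes, and -0.62 for the substrate genes, or -0.45 without the 3 that had to differ.

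Set side by side, the classes differed in their counts, and no test of a class against another was made. Of the cell cycle F-box genes 40.0% rose and 20.0% fell, of the atrophy genes 3 of 3 rose, and of the other F-box genes 55.3% rose and 10.5% fell, against 31.7% and 29.4% over all tested genes. The atrophy count leaves out Fbxo31, linked to atrophy too, which was placed in the cell cycle class and did not pass. Scaling to a common total moved the median of all tested genes to 0.20 and the share of calls that were higher from 51.8% to 69.7%. The members' median moved with it, to 0.41, and stood 0.21 above the median of all tested genes under both scalings. Under other alternatives this gap was not constant: it was 0.12 without the filter, 0.18 after quantile normalization and 0.25 with the filter at 5. At that scaling 36 members rose and 5 fell.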

How the data were processed

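RNA was measured in 6 libraries of rat nucleus pulposus cells, 3 serum-starved and 3 control, grouped by sample title. Per the labels' protocols, ribosomal RNA was removed with captured probes and cDNA was made from random primers. The authors deposited 1 value per gene and library, rounded to 2 decimals. No header names the unit, and these deposited values were treated as FPKM, since they are not whole numbers and have a different total in each library. If they are TPM from a larger set of genes, they differ from this by 1 factor per library. The tools named in the submitters' processing notes are HISAT2, StringTie, bcl2fastq 2.0, limma and DESeq2, and the build is mm10, a mouse genome, although all 68 members carry rat gene IDs found in RefSeq. The alignment reference, annotation and strand handling are therefore uncertain. Depth is unknown, so no counting interval is given.

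Values were analysed as log2(value + 1) after a filter of at least 1 in at least 3 of 6 libraries. Groups were compared over all 11493 tested genes with limma 3.58.1 in R 4.3.3 (intensity trend, 4 residual degrees of freedom, Benjamini-Hochberg adjusted p of at most 0.05). The test was checked on simulated data. Ratios within a library were compared by exact permutation. Python 3.11.15, pandas 2.3.3, numpy 2.4.6 and matplotlib 3.10.9 served for joins, letter searches in RefSeq (GRCr8) promoter windows and plots. Alternatives covered the pseudocount, filter, scaling, spread, weights, replicate block and each library left out. The members and lists were chosen with earlier results of these data known. Named were the members except 1, which is not reported here, 5 further genes (Ccnf, Cks1b, Cdkn1b, Trim63 and Foxo1) and up to 3 called genes with the largest change per list. Marker genes, Ube2r2, Cand1 and substrate genes that only mark how a list passed the filter were named after their values were seen.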

Additional observations from a re-analysis of the deposited data

How the results depend on the processing

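Over 16 alternatives, 22 of the 35 called members kept their call in each one that tested them, and 0 changed sign. Fbxo5 lay between -2.99 (pseudocount 0.1) and -2.33 (common total) on the log2 scale. Leaving out 1 library at a time gave 20 to 27 members that rose and 7 to 8 that fell, 13 to 20 other F-box genes that rose, and 5899 to 6683 called genes in all. With the filter at 5, 4 members, 1 cell cycle F-box gene and 2 other F-box genes fell, since fewer genes were tested. At a common total 2 other F-box genes fell. Members that did not pass changed sign without passing. At a common total Cul1 was 0.0822, Skp1 0.0948, Fbxl5 0.118, Fbxl18 0.114 and Fbxw8 0.0515. After quantile normalization Cul1 was 0.0279, Skp1 0.0347, Fbxl5 0.0411 and Fbxl12 -0.0325. With median-ratio scaling Fbxl12 was -0.0306 and Fbxo7 -0.0165, and with library weights Fbxw17 was -0.0105. With 1 library left out, values of either sign were seen for Fbxl12 (-0.06 to 0.1), Fbxl18 (-0.11 to 0.0668), Fbxo7 (-0.0147 to 0.05) and Fbxw9 (-0.0346 to 0.2). The cause was not tested. Titles number the libraries alike in both groups, and the labels give no other link between same-numbered libraries. Their deviations correlated at 0.037, -0.162 and 0.101, and not every library correlated best with its own number. With 3 libraries per group, such correlations cannot decide whether same-numbered libraries were paired. With the replicate block, 27 members rose, 7 fell and 6801 genes were called, and Fbxo3 did not pass (adjusted p = 0.0537 with limma). Low genes such as Skp2 and Trim63 rest on values near 1, rounded to 2 decimals, with unknown depth.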
